A study of Mus musculus with 14 samples.

Results

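The Zfp genes are mouse genes named for the zinc fingers of their proteins, and 48 of the 4384 genes that had a MyoD or MyoG peak in muscle stem cells (MuSCs) were Zfp genes (1.09%). They were chosen by name, as every gene of the 12 peak lists whose symbol begins with Zfp and a digit. They held 217 of 10303 peaks (2.11%). MyoD and MyoG, transcription factors of the muscle lineage, had been immunoprecipitated (ChIP-seq) from quiescent (QSC) and activated (ASC) MuSCs with 3 libraries in each of the 4 groups ASC MyoD, QSC MyoD, ASC MyoG and QSC MyoG. All groups came from wild-type mice with a mito-Dendra2 allele switched on by a Pax7-Cre(ERT2) driver, so that MuSCs and their descendants were fluorescent, after 5 daily doses of tamoxifen at 75 mg/kg. QSCs were sorted as CD34+, Dendra2+, DAPI- cells from a saline-injected tibialis anterior, a shin muscle, and ASCs as CD34-, Dendra2+, DAPI- cells from the opposite muscle 2 days after injury with 50 µL of 1.2% BaCl2. The comparison of states asks where the factors are found before and after activation, but state, injury and CD34 gate changed together and cannot be told apart. The mice's ages, and whether replicates were separate animals, are not given in the labels, so p-values measure only the spread between these libraries. Peak lists hold no expression values, so the identity of the sorted cells was not checked against marker genes.

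Most Zfp genes encode proteins with fingers of the C2H2 type, each of which grips a few bases of DNA. Many of these also carry a KRAB domain, which recruits the corepressor TRIM28 and heterochromatin enzymes, and KRAB zinc-finger genes are known for silencing transposons and imprinted loci. They arose by repeated tandem duplication, so that large arrays of related genes lie on a few mouse chromosomes, with chromosomes 4 and 13 among the best known. Other Zfp genes are single, long-conserved regulators, and a few, such as the Zfp36 family, carry CCCH fingers and bind mRNA. MyoD and MyoG bind the E-box, CANNTG, for which CAGCTG is a preferred form.

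Peaks of different Zfp genes within 1 Mb of each other were joined into clusters, which gave 7 clusters with 19 genes and 128 peaks, and left 29 lone genes with 89 peaks. Of 397 protein-coding Zfp genes in RefSeq, 282 (71.0%) start within 1 Mb of another, and this was true of 27 of the 45 members found there, 11 of them among the lone genes. Thus lone means that no other Zfp gene nearby had a peak. Just inside the limit, Zfp808 and Zfp934 lay 363 kb apart. Just outside it, the nearest other Zfp peak to Zfp369, at Zfp998, was 1050 kb away. In all, 45 of 397 RefSeq Zfp genes (11.3%) had a peak, and 3159 of 21900 protein-coding genes (14.4%) did.

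The clusters with the most genes were neighbours on chromosome 4 (mm10). Cluster 1, at chr4:145506559-146127426, held Zfp268, Zfp986, Zfp987 and Zfp990. Cluster 2, at chr4:147493990-147760698, held Zfp534, Zfp979, Zfp982, Zfp984 and Zfp985, and with 53 peaks it was the richest in peaks. Cluster 6, at chr13:66394865-66756031, held Zfp640 and Zfp998 with 45 peaks. The other 4 clusters, Zfp653 and Zfp810 on chromosome 9, Zfp781 and Zfp938 on chromosome 10, Zfp808 and Zfp934 on chromosome 13, and Zfp119a and Zfp119b on chromosome 17, had 1 peak per gene and 2 peaks each.

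Promoters of 5 Zfp genes under MyoD peaks are shown because they contrast the chromosome 4 genes with lone genes. RefSeq windows (GRCm38.p6, the mm10 assembly; 250 bases before and 50 after a start) were found for 32 of the 48 genes, with 42 windows, and 8 windows of 7 genes overlapped a peak. In each line the 250 bases before the start run 5′ to 3′ along the gene, and CANNTG, which reads alike in form on both strands, is in capitals.
Zfp979, chr4:147642509-147642758, minus strand: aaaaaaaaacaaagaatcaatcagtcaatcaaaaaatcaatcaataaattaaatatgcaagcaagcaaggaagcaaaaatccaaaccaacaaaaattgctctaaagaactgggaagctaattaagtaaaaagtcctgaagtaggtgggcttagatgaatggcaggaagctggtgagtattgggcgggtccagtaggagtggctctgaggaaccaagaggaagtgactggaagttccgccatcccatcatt
Zfp985, chr4:147553027-147553276, plus strand: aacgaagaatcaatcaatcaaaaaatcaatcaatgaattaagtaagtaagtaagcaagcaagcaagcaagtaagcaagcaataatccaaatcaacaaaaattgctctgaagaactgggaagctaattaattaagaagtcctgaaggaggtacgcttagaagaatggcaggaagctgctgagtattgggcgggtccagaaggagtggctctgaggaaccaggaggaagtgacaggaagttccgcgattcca
Zfp984, chr4:147809789-147810038, minus strand: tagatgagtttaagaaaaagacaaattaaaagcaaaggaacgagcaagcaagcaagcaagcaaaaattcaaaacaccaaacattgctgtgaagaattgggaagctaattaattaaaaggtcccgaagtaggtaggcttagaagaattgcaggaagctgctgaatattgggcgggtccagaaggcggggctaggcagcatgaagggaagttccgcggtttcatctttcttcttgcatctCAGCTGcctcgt
Zfp3, chr11:70764197-70764446, plus strand: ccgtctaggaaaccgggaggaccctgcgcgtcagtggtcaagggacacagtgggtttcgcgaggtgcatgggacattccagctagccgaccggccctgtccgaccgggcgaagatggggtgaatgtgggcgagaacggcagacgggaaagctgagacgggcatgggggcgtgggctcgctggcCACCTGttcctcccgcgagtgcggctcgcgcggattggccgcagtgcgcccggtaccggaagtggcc
Zfp869, chr8:69716903-69717152, minus strand: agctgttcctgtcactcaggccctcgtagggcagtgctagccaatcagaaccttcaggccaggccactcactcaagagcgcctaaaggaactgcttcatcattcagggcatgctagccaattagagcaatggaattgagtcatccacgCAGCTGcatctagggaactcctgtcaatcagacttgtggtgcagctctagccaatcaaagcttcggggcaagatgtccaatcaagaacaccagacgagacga
The windows of Zfp979 and Zfp985 were each overlapped in 1 QSC MyoD library, and neither contains CANNTG. The window of Zfp984 was overlapped in 2 QSC MyoD libraries by peaks annotated to its neighbour Gm20707, and its CANNTG is a CAGCTG. Zfp3 had its window under a peak in all 3 ASC MyoD libraries and Zfp869 in 2 of them, although the annotation of the lists calls the Zfp869 peaks distal intergenic. Not shown are lone Zfp605 and clustered Zfp938, each overlapped in 1 ASC MyoD library and each with CANNTG in its windows. The 50 bases after the start are not printed, and those of Zfp3 hold a CAGCTG.

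The letters CANNTG were in 25 of the 42 Zfp windows (59.5%) and in 23756 of 32851 windows of all genes (72.3%). By kind, 8 of 18 windows of clustered genes and 17 of 24 of lone genes held it, and in the chromosome 4 clusters 3 of 8 did. CAGCTG, which is contained in CANNTG, was in 10 of 42 Zfp windows (23.8%) against 16.3% of all windows, and in 1 of 8 on chromosome 4. These are counts of letters in short windows and do not say where a factor bound.

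The chromosome 4 promoters resembled each other far more than those of lone genes did. Over the 15 pairs of the 6 chromosome 4 genes with a window, identity in a global alignment ranged from 59.6% to 89.1% with a median of 73.3%. Over the 153 pairs of lone genes it ranged from 37.3% to 55.8% with a median of 50.3%, so the ranges did not overlap. The most alike chromosome 4 promoters, Zfp982 and Zfp987 (89.1%), belong to different clusters. In clusters elsewhere, identity was 50.4% for Zfp653 and Zfp810 and 67.5% for Zfp781 and Zfp938. The highest value of any pair was 91.3% for Zfp119a and Zfp119b. Reads from such similar copies can match several places. How the authors placed such reads is not given in the sources used here, so the assignment of a peak to 1 gene of these families is uncertain, and the part of this in the results below was not tested.

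**Figure D1:**
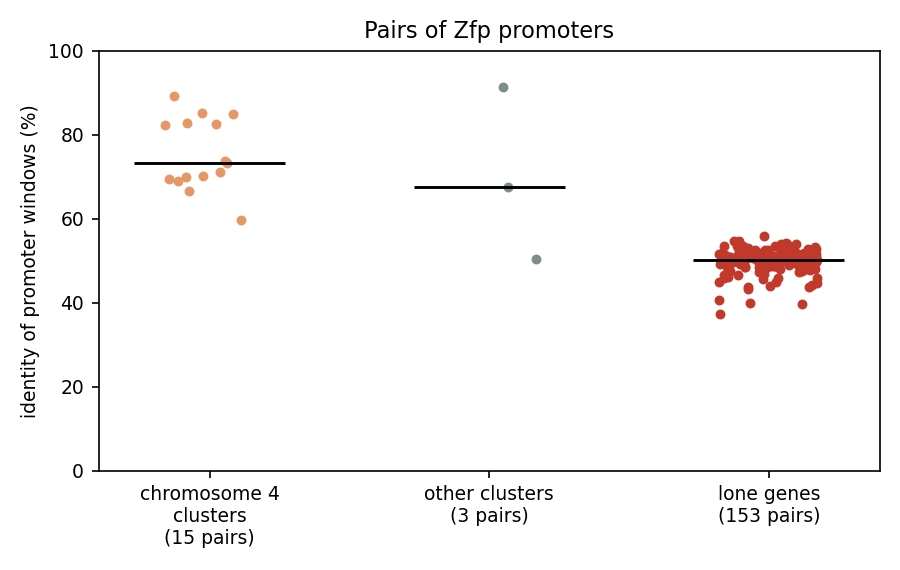
Identity (%) between the promoter windows of pairs of Zfp genes, 1 point per pair, with the best-matching windows used for genes with several and a line at the median. All 15 chromosome 4 pairs lie at 59.6% or above and all 153 pairs of lone genes at 55.8% or below.

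Zfp genes took a far larger share of the short QSC MyoD peak lists than of any other. The 3 QSC MyoD lists gave 23 of 171, 32 of 139 and 34 of 174 peaks to Zfp genes, or 13.5%, 23.0% and 19.5% (mean 18.7 ± 4.84%, SD, n = 3). In ASC MyoD it was 25 of 2652, 18 of 2262 and 25 of 2296 peaks, or 0.943%, 0.796% and 1.09% (0.942 ± 0.147%, n = 3). The counts of Zfp peaks were thus of like size in both states, at 23 to 34 and 18 to 25, while the lists that held them differed in length. The MyoD share was 17.7 percentage points lower in ASCs, with no overlap between the groups (two-sided exact permutation test over libraries, p = 0.1, the smallest p that 3 against 3 libraries allow; 0.138 after Benjamini-Hochberg adjustment over 11 tests). It was 8.57 points lower without the peaks of cluster 2 and 53.0 points lower among peaks scoring at least 80.

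For MyoG the direction was opposite. ASC MyoG gave 22 of 916, 15 of 605 and 19 of 639 peaks to Zfp genes, or 2.40%, 2.48% and 2.97% (2.62 ± 0.310%, n = 3). QSC MyoG gave 2 of 120, 2 of 162 and 0 of 167, or 1.67%, 1.23% and 0%, where a count of 0 still allows a share of up to 1.80% (0.967 ± 0.865%, n = 3). The ASC share was 1.65 points higher without overlap (exact permutation p = 0.1, adjusted 0.138), but the 95% Wilson intervals of QSC MyoG replicates 1 and 2, up to 5.87% and 4.39%, include all 3 ASC values, while the limit of replicate 3 lies below them. Between the antibodies, the share was 1.68 points lower for MyoD than MyoG in ASCs and 17.7 points higher in QSCs (exact permutation p = 0.1 and adjusted p = 0.138 for each). The QSC difference was 8.78 points without cluster 2 and 54.1 points at a score of at least 80. At that score the QSC MyoG lists held only 8, 4 and 9 peaks, with no Zfp peak among them. The intervals and limits cover counting error only, and peaks of a list are not independent of each other.

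**Figure D2:**
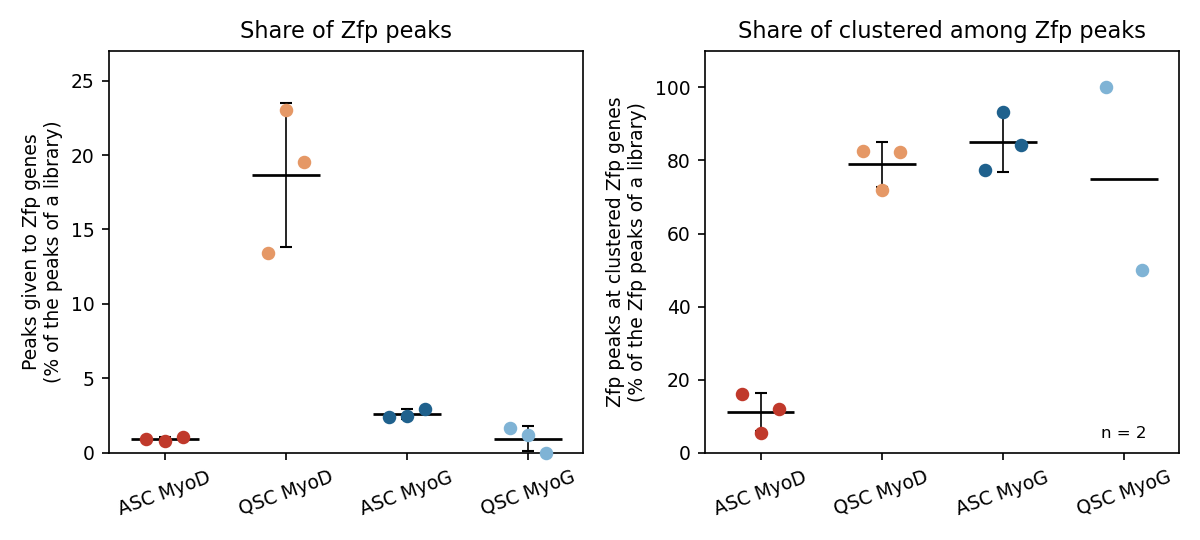
Left, the percent of the peaks of each library given to Zfp genes. Right, the percent of those Zfp peaks that lie at clustered Zfp genes; points are libraries, lines are group means and bars are SD (none where n = 2). The QSC MyoD libraries lie at 13.5% to 23.0% on the left, and the ASC MyoD libraries lie below every other library on the right.

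The Zfp peaks of QSC MyoD were also among the highest-scoring and widest of their lists. A peak's score is the log10 of its MACS p-value with the sign changed, multiplied by 10, and the lists begin at a score of 50, which corresponds to 1e-05. Among the 10 highest-scoring peaks of a list, 7, 9 and 8 were Zfp peaks in the 3 QSC MyoD libraries, against 0 or 1 in each of the other 9. At a score of at least 80, Zfp genes held 12 of 26, 16 of 25 and 13 of 25 QSC MyoD peaks (46.2%, 64.0% and 52.0%). By length, they covered 22.8%, 39.6% and 31.3% of the bases under QSC MyoD peaks, and 1.23 ± 0.454% of those under ASC MyoD peaks (SD, n = 3). Of 87 QSC MyoD peaks wider than 2 kb, 38 were at Zfp genes (43.7%). Of such wide peaks, 3 of 13 were at Zfp genes in ASC MyoD (23.1%), 1 of 18 in QSC MyoG (5.56%) and 3 of 179 in ASC MyoG (1.68%).

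Of the 48 Zfp genes, 40 (83.3%) had peaks in 1 group only, 7 in 2 and 1, Zfp982, in 3, and 21 (43.8%) were seen in a single library. Among the other genes with a peak, 3853 of 4336 (88.9%) were in 1 group only and 2245 of 4336 (51.8%) in a single library. A peak in QSC MyoD was found at 14 of the 48 Zfp genes (29.2%) and at 331 of 4336 other genes (7.63%), and one in ASC MyoD at 27 (56.2%) and 2937 of 4336 (67.7%). Of the 27 Zfp genes with ASC MyoD peaks 20 were lone, whereas QSC MyoD had peaks at 14 (11 clustered), ASC MyoG at 12 (4 clustered) and QSC MyoG at 4 (3 clustered). A peak in all 3 libraries of ASC MyoD was found at 9 lone genes and no clustered gene. In QSC MyoD it was found at 7 clustered genes and 1 lone gene, Zfp709. The share of all genes with a peak in all 3 libraries is not given here, so these counts have no background. Clustered and lone were set by these same peaks, so the counts are a description and not a test.

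**Figure D3:**
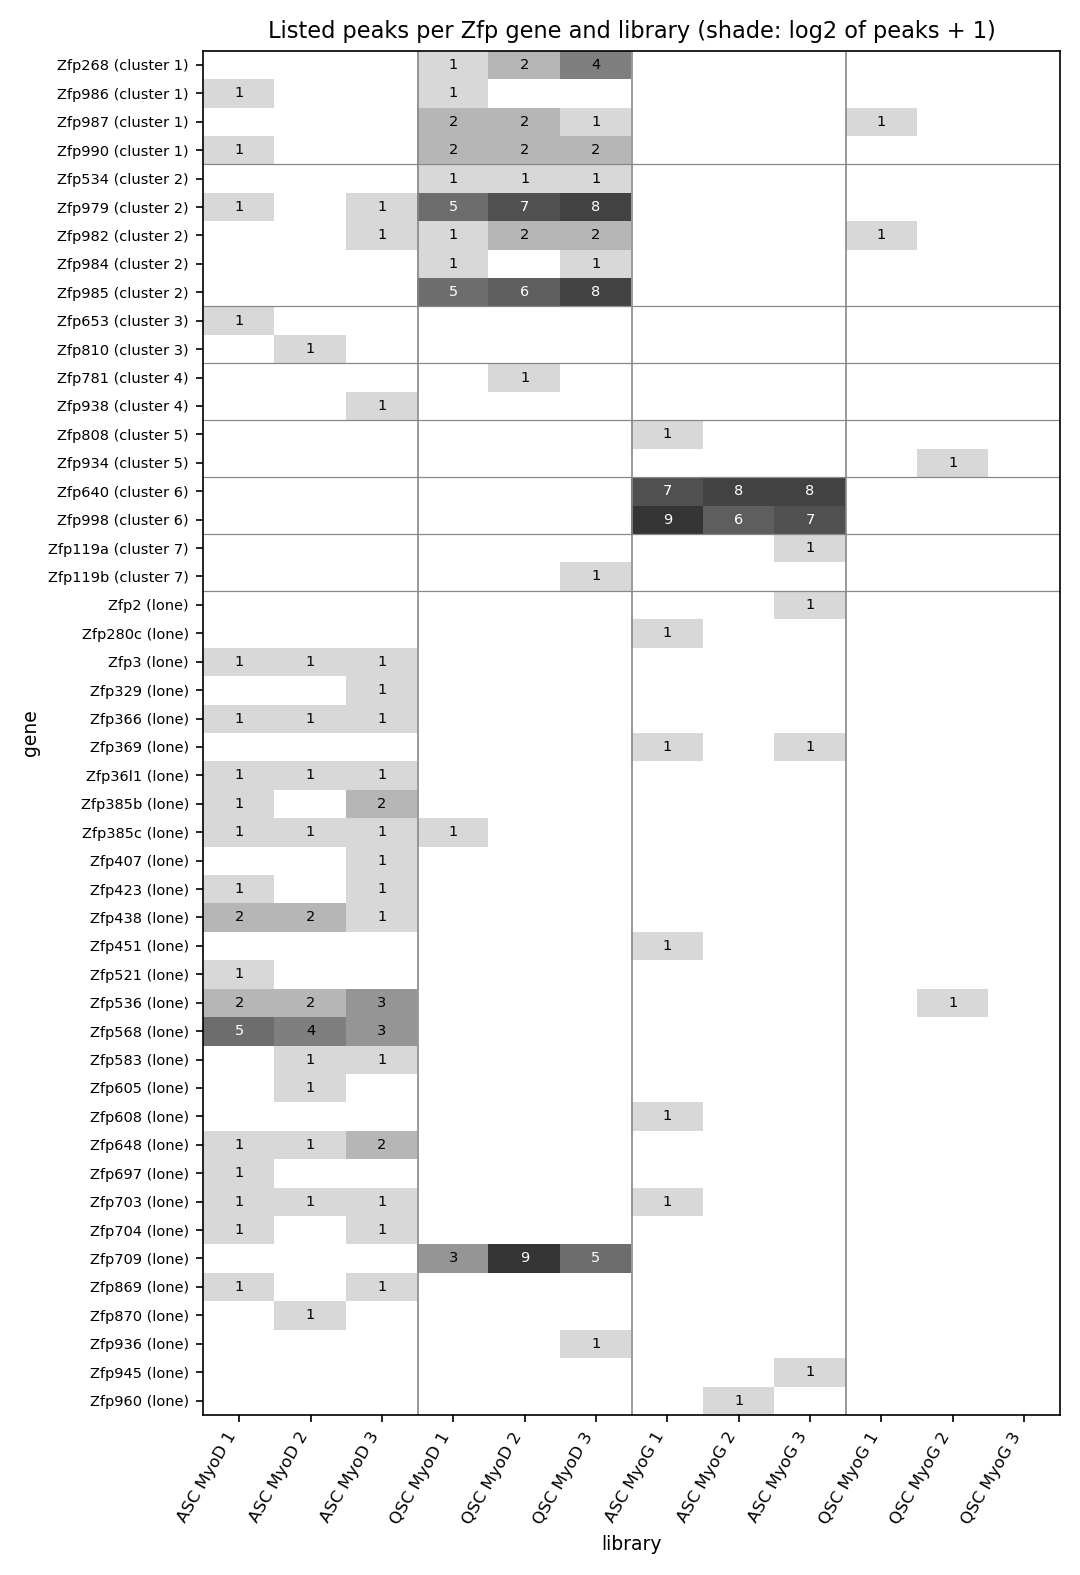
Number of listed peaks (printed, with darker shade for more) for each of the 48 Zfp genes in rows and each of the 12 libraries in columns, clusters first. ASC MyoD peaks are scattered over lone genes, QSC MyoD peaks fall on the chromosome 4 clusters and Zfp709, and ASC MyoG peaks fall on Zfp640 and Zfp998.

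Clustered genes accordingly took different shares of the Zfp peaks. They held 16.0%, 5.56% and 12.0% of the Zfp peaks of ASC MyoD (11.2 ± 5.27%, SD, n = 3) and 82.6%, 71.9% and 82.4% of those of QSC MyoD (78.9 ± 6.12%, n = 3). In ASC MyoG they held 77.3%, 93.3% and 84.2% (84.9 ± 8.06%, n = 3). ASC MyoD thus stood 67.8 points below QSC MyoD and 73.8 points below ASC MyoG without overlap (exact permutation p = 0.1 and adjusted p = 0.138 for each). Since peaks of all 12 lists placed genes in clusters, the share was also computed with clusters set by RefSeq gene starts alone, which moved these differences to −59.1 and −45.1 points (exact permutation p = 0.1 for each). That setting left out Zfp268, Zfp986 and Zfp998, which have no RefSeq start, and with them the 22 ASC MyoG peaks of Zfp998. QSC MyoG had 100% and 50% from 2 peaks each in the 2 libraries with Zfp peaks, and its differences from ASC MyoG (9.94 points) and from QSC MyoD (3.95 points) were within the spread (exact permutation p = 0.8 and adjusted p = 0.8 for each).

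Merged over the libraries of an antibody, the Zfp peaks formed 81 MyoD and 41 MyoG regions. A region was called ASC-specific when at least 2 of the 3 ASC libraries and no QSC library had a peak in it, and QSC-specific in the converse case. For MyoD, 17 Zfp regions were ASC-specific (21.0%, against 44% of all 4488 MyoD regions) and 16 were QSC-specific (19.8%, against 0.78%), so Zfp genes held 45.7% of the 35 QSC-specific regions. For MyoG, 12 Zfp regions were ASC-specific (29.3%, against 9.42% of 2198 regions), and none was QSC-specific (0.136% of all regions, or 3). The count of 12 was 7, 5 and 6 without ASC MyoG replicate 1, 2 and 3. These calls rest on the presence of a peak, and no test was made of them.

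The state-specific regions separated by place. All 17 ASC-specific MyoD regions lay at 12 lone genes. Of the 16 QSC-specific MyoD regions, 9 lay in cluster 2, 4 in cluster 1 and 3 at Zfp709. All 12 ASC-specific MyoG regions lay at Zfp998 and Zfp640. Clustered and lone were set by these same peaks, so the separation is partly built in and is a description, not a test. Of the lone genes with these regions, Zfp568, Zfp583, Zfp869 and Zfp709 start within 1 Mb of another Zfp gene in RefSeq.

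In cluster 2, QSC MyoD peaks numbered 13, 16 and 20 in replicates 1, 2 and 3, ASC MyoD peaks 1, 0 and 2, and a single QSC MyoG peak was listed. The highest-scoring region, at chr4:147594236-147607028 between Zfp985 and Zfp979, is annotated as distal intergenic, and its highest peak scored 437, 419 and 144 in the QSC MyoD replicates (333 ± 164, SD, n = 3). It is 12793 bp long and merges 11 peaks. No ASC library had a peak there.

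Beside it, chr4:147607638-147620658 reaches into Zfp979, one of the KRAB genes, with QSC MyoD scores of 351, 141 and 68.1 (186 ± 147, n = 3). Here 2 ASC MyoD libraries had peaks too, so that the region is not state-specific. Zfp985 carried a region at chr4:147561877-147566800, annotated to its 5′ UTR, with scores of 329, 161 and 139 (209 ± 104, n = 3). Another, at chr4:147573261-147576243 in an intron of Zfp985, scored 107, 89.8 and 95.8 (97.5 ± 8.76, n = 3). Replicate 1 gave the highest score in each of these 4 regions, and scores rise with sequencing depth, which peak lists do not give.

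In total Zfp979 had 5, 7 and 8 QSC MyoD peaks and Zfp985 had 5, 6 and 8, whereas Zfp534 had 1 in each replicate and Zfp984 had 1, 0 and 1. Zfp982 had 1, 2 and 2 QSC MyoD peaks of up to 5467 bp. At chr4:147493990-147499833 its QSC MyoD scores were 156 and 111 in replicates 2 and 3, and the QSC MyoG peak of the cluster, at chr4:147496613-147498648 with a score of 55.7, lay within this region. Further into the gene, chr4:147506843-147513169 scored 161, 53.0 and 58.2 in the QSC MyoD replicates, and the ASC MyoD peak of replicate 3 there scored 54.8. Zfp982 was therefore the member with peaks in the most groups.

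Cluster 1 had 6, 6 and 7 QSC MyoD peaks. Its highest QSC-specific region by rank was at Zfp987, one of the KRAB genes, at chr4:146124569-146126174 in the last exon and 3′ UTR. The scores there were 164, 184 and 173 (174 ± 9.77, n = 3). A QSC MyoG peak of score 56.8 in replicate 1 lay inside it. Zfp268 had 1, 2 and 4 QSC MyoD peaks, with a region at chr4:145584160-145591130 annotated to its promoter that scored 177 and 169 in replicates 2 and 3. Zfp990 had 2 QSC MyoD peaks in each replicate and 1 ASC MyoD peak, and Zfp986 had 1 weak promoter peak in each state, of score 64.3 in QSC and 52.9 in ASC MyoD replicate 1.

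Zfp709, on chromosome 8, was lone by rule but had a pattern like that of the chromosome 4 genes. It had 3, 9 and 5 QSC MyoD peaks and none in the other groups. All 17 were annotated as distal intergenic and lay 25.8 to 70.4 kb from the gene. The highest-scoring region, chr8:71828968-71832992, had scores of 272 and 114 in replicates 2 and 3. The nearest other Zfp gene with a peak was Zfp869, 2092 kb away. Outside chromosome 4 (68 peaks) and Zfp709 (17 peaks), only 4 QSC MyoD peaks were given to Zfp genes.

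Cluster 6 was the converse case, since its 45 peaks were all of ASC MyoG, with 16, 14 and 15 in replicates 1, 2 and 3. Zfp998 had 9, 6 and 7 of them and Zfp640 had 7, 8 and 8. The highest-scoring region, at chr13:66429190-66433918 across an intron and the promoter of Zfp998, scored 254, 553 and 180 (329 ± 198, n = 3). The adjoining chr13:66426257-66429166, in an intron, scored 161, 111 and 181 (151 ± 36.0, n = 3).

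At Zfp640, chr13:66725219-66727464 was distal intergenic and scored 221, 73.8 and 102 (132 ± 78.4, n = 3). These were the only 3 Zfp regions with a peak in every ASC MyoG library. The next 2 by rank, chr13:66444025-66444916 and chr13:66458939-66460705, both at Zfp998, had peaks in 2 libraries and mean scores of 85.6 and 76.4. Only 11 ASC MyoG Zfp peaks lay elsewhere, at 10 genes with 1 or 2 peaks each. One of them was at Zfp451, whose product is a SUMO ligase, and scored 76.4.

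**Figure D4:**
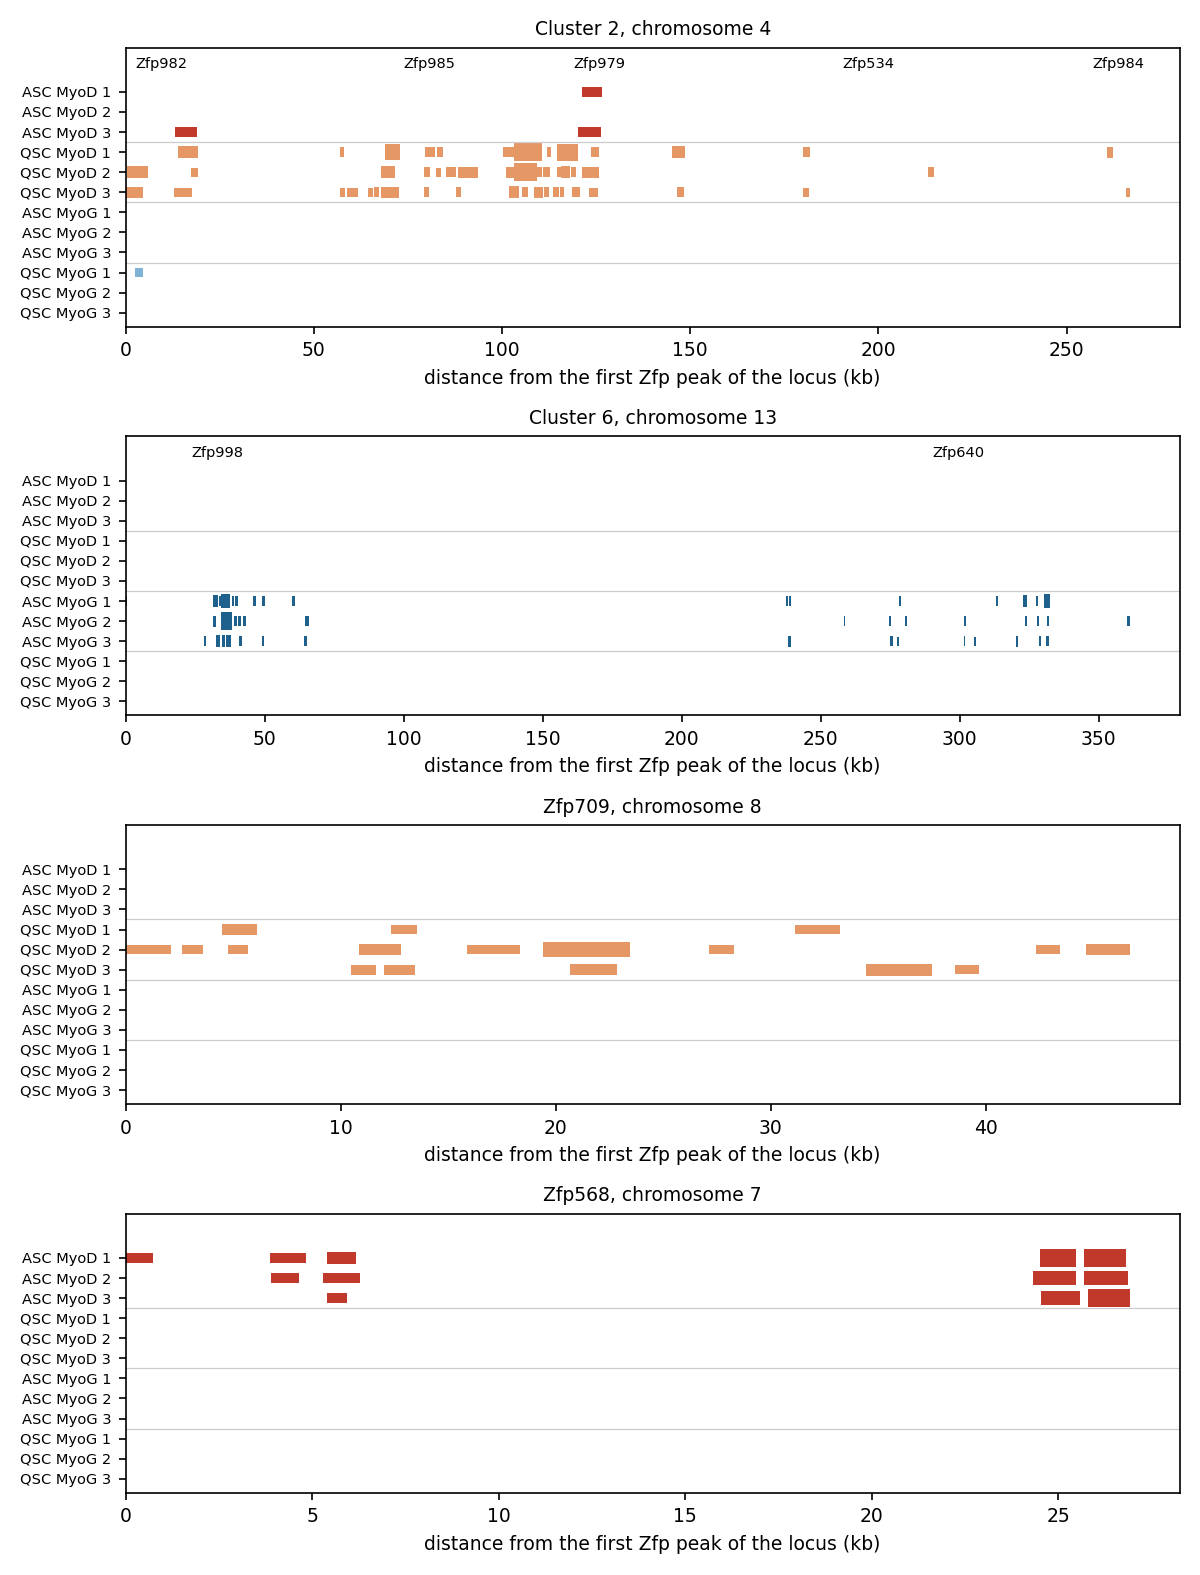
Listed Zfp peaks of each library (rows) along 4 loci, as distance in kb from the first Zfp peak of the locus; bar length is peak width and bar height grows with score up to a fixed cap. Peaks of QSC MyoD spread over cluster 2 and the Zfp709 locus, those of ASC MyoG over cluster 6, and those of ASC MyoD over 5 places in Zfp568, 3 of them shared by all 3 replicates.

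The ASC MyoD peaks were spread over more Zfp genes than those of the other groups, and the same held for other genes. A peak in ASC MyoD, whose lists are the longest, was found at 56.2% of the Zfp genes and 67.7% of other genes. For QSC MyoD, ASC MyoG and QSC MyoG it was 29.2%, 25.0% and 8.33% of Zfp genes against 7.63%, 28.1% and 9.43% of other genes. Of the 68 Zfp peaks of ASC MyoD, 60 were at lone genes and 5 on chromosome 4. Zfp568, which encodes a KRAB protein known to silence a placental promoter of Igf2, had 5, 4 and 3 peaks. A pair of regions in one of its introns led the Zfp regions of ASC MyoD, with chr7:30009112-30010336 scoring 435, 216 and 411 (354 ± 120, SD, n = 3) and chr7:30007753-30008996 scoring 424, 265 and 219 (303 ± 108, n = 3). A region at its promoter, chr7:29988703-29989702, scored lower, at 139, 94.8 and 80.5 (105 ± 30.7, n = 3). All were ASC-specific. Zfp568 thus had all 12 of its MyoD peaks in ASCs, whereas Zfp979 had 2 in ASCs and 20 in QSCs and Zfp987 had 5, all in QSCs.

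Zfp366, which encodes a nuclear receptor corepressor known from dendritic cells, had 1 peak per ASC MyoD library at chr13:99259138-99260254, about 12.1 kb from the gene, scoring 349, 239 and 165 (251 ± 92.2, n = 3). Zfp385c had one in its 3′ UTR, chr11:100628412-100629678, scoring 164, 133 and 150 (149 ± 15.7, n = 3). It also had 1 QSC MyoD peak elsewhere in the gene. Zfp3 had its promoter peak in all 3 libraries, at scores of 87.1, 63.0 and 56.9.

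Of 25 regulators listed by name, 19 had no peak and 6, all lone genes, had one, beside 14.4% of all protein-coding genes. Zfp423, Zfp521, Zfp703, Zfp704, Zfp536 and Zfp697 each had a peak in ASC MyoD, whose lists are the longest, and none in QSC MyoD. Zfp703, a corepressor gene, had a peak in each ASC MyoD library at chr8:26891564-26892666, 84.7 kb or more from the gene, scoring 91.9, 85.7 and 146. It also had an ASC MyoG peak of score 57.2 at another position. Zfp536, a regulator of neuronal differentiation, had an intronic region, chr7:37530552-37531458, scoring 53.9, 106 and 97.6, and a QSC MyoG peak of score 50.3 elsewhere in the gene.

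The others were weaker or seen less often. Zfp423, known for adipocyte commitment, had 1 peak in ASC MyoD replicates 1 and 3, at different positions with scores of 54.2 and 55.4. Zfp521, a progenitor regulator, had 1 peak of score 53.7 in replicate 1. Zfp704 had an intronic region in replicates 1 and 3 with scores of 74.7 and 57.2, and Zfp697 a peak of 108 in replicate 1. Of 4 CCCH genes, only Zfp36l1, whose product promotes decay of AU-rich mRNAs, had peaks, 1 in each ASC MyoD library and all at least 158 kb from the gene. Of 11 KRAB genes listed for imprinting or transposon control, 3 had a peak, Zfp568, Zfp979 and Zfp987. Among all RefSeq Zfp genes 11.3% had a peak, and the lists were chosen with earlier results of these data known.

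Within libraries, peaks at clustered genes were wider than those at lone genes. The median width was greater at clustered genes in 8 of the 10 libraries that had both kinds, by a mean of 674 bp (two-sided exact sign-flip permutation test over libraries, p = 0.00781, adjusted p = 0.043). The differences were 195, 225 and 4990 bp in the ASC MyoD replicates, 396, −67 and 294 bp in QSC MyoD, 145, 192 and 382 bp in ASC MyoG, and −14 bp in the 1 QSC MyoG library. The mean rests largely on ASC MyoD replicate 3, whose 3 clustered peaks had a median of 5855 bp, and it was 194 bp without it (exact permutation p = 0.0156). It was 88.6 bp without cluster 2 (exact permutation p = 0.15) and 214 bp with clusters set by RefSeq gene starts (p = 0.141). With RefSeq starts, fewer than 10 libraries held both kinds.

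By group, clustered peaks spanned 576 to 7354 bp in QSC MyoD (median of 70 peaks, 1754 bp) and 505 to 3882 bp in ASC MyoG (median of 47 peaks, 892 bp). Lone peaks spanned 474 to 1268 bp in ASC MyoD (median of 60 peaks, 904 bp). Of 45 Zfp peaks over 2 kb, 38 were at clustered genes and 7 at lone genes, all 7 at Zfp709. By group, 38 of the 45 were of QSC MyoD, 3 each of ASC MyoD and ASC MyoG and 1 of QSC MyoG.

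**Figure D5:**
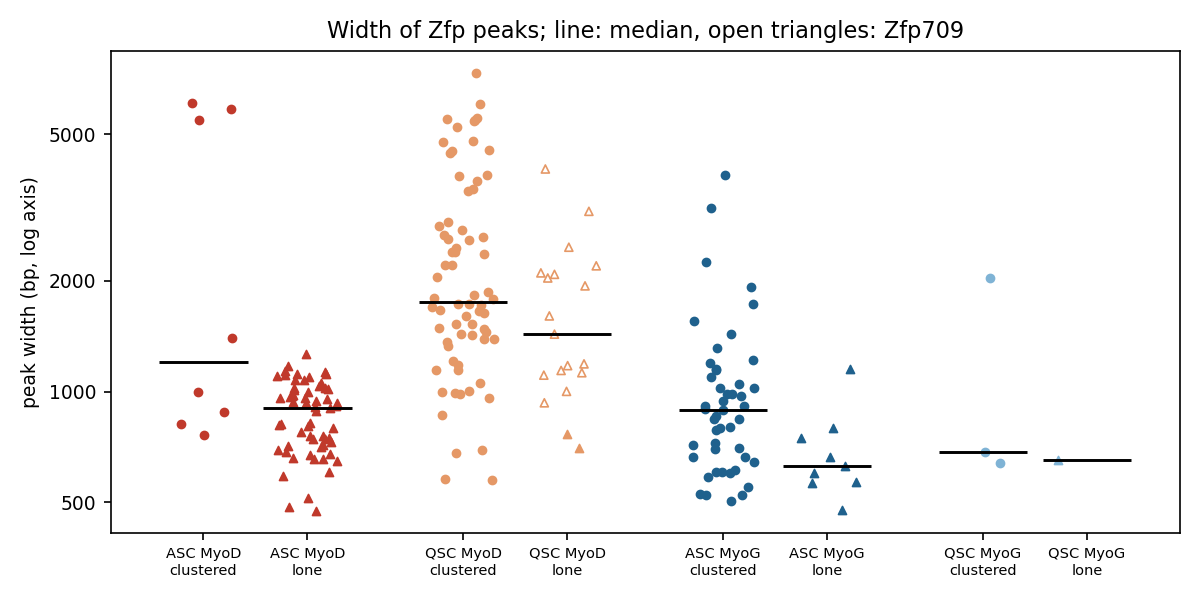
Width (bp, log axis) of every Zfp peak by group, at clustered genes (circles) and lone genes (triangles, open for Zfp709), with a line at the median. Peaks over 2 kb are mostly of QSC MyoD at clustered genes, and the 7 wide peaks at a lone gene are all at Zfp709.

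The annotation differed between the kinds as well. The share of peaks in promoters, which the authors set within 3 kb of a start, was on average 26.3 points higher at clustered genes, in 8 of 10 libraries with 1 lower and 1 equal (exact sign-flip permutation p = 0.00781, adjusted p = 0.043). The differences were 5.95, 76.5 and 53.0 points in ASC MyoD, −3.95, 8.70 and 21.4 in QSC MyoD, 41.2, 28.6 and 31.2 in ASC MyoG and 0 in QSC MyoG. Some rest on few peaks, with 1 clustered peak in ASC MyoD replicate 2, 1 lone peak in ASC MyoG replicate 2 and 1 of each kind in the QSC MyoG library. The ASC MyoG values rest mostly on Zfp998 and Zfp640. As for width, replicates of a group shared loci, so the 10 differences are not independent, and the kinds were set by these same peaks. At clustered genes, promoters held 4 of 8 peaks in ASC MyoD, 12 of 70 in QSC MyoD (17.1%) and 16 of 47 in ASC MyoG (34.0%). At lone genes they held 11 of 60 (18.3%), 1 of 19 and 0 of 9. The difference was 6.53 points with clusters set by RefSeq gene starts (exact permutation p = 0.75) and 5.38 points at a score of at least 80 (p = 0.5). It was 19.9 points without Zfp709, whose peaks were all distal (exact permutation p = 0.211). Each of these alternatives had fewer than 10 libraries with both kinds, and at a score of at least 80 none of them was of MyoG.

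Other parts of genes also differed by group. Untranslated regions held 18 of the 70 clustered QSC MyoD peaks (25.7%), against 2.28% of the 395 QSC MyoD peaks of other genes, and distal intergenic sequence held 19 (27.1%, against 57.7%). Clustered ASC MyoG peaks were distal in 23 of 47 cases (48.9%), against 59.4% of the 2104 peaks of other genes. Lone ASC MyoD peaks were distal in 29 of 60 cases (48.3%) and intronic in 16 (26.7%), against 35.7% and 35.2% of the 7142 peaks of other genes. These shares pool 3 libraries each and were not tested.

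Score did not separate the kinds over all libraries. The median rank of a score within its list, from 0 to 100, was 8.79 points higher at clustered genes on average (exact sign-flip permutation p = 0.434, adjusted p = 0.53), higher in 6 and lower in 4 of 10 libraries. The direction differed between groups, with values of −42.8, −21.9 and −28.8 points in the ASC MyoD replicates and 20.6, 36.5 and 43.5 in ASC MyoG. In QSC MyoD they were 13.5, 10.8 and −7.76. QSC MyoG replicate 2, with 1 peak of each kind, had the largest value, 64.2 points. Without that library the mean was 2.63 points (exact sign-flip permutation p = 0.793). Clustered Zfp peaks thus ranked below lone Zfp peaks in each ASC MyoD library and above them in each ASC MyoG library, a difference between groups that was not tested.

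Peaks in more than 1 group were found at 8 of 48 Zfp genes (16.7%) and at 483 of 4336 other genes (11.1%). The 8 Zfp genes were Zfp979, Zfp982, Zfp986, Zfp987, Zfp990, Zfp536, Zfp703 and Zfp385c, 5 of them on chromosome 4. The QSC MyoG peaks at Zfp982 and Zfp987 overlapped QSC MyoD regions. The other QSC MyoG peaks, at Zfp934 with a score of 57.7 and at Zfp536, overlapped no QSC MyoD region. Each of these 4 was seen in 1 library, so that no Zfp region was replicated in QSC MyoG.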

How the data were processed

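ChIP-seq with a MyoD or a MyoG antibody was analysed in 12 libraries (3 per group), whereas 2 input libraries were left out. Sample titles gave the group and the replicate number. The authors called peaks per library with MACS on reads aligned to mm10 with BWA 0.7.5 (submitters' processing notes, which also name deepTools 3.5.0). The deposited lists give each peak's start and end (other), a gene, an annotation and a score, minus 10 times the log10 of the MACS p-value. The MACS version and the use of input are not given in the sources used here. Lists hold no reads, so depth is unknown and peak numbers could not be corrected for it.

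Zfp genes and gene lists were chosen with earlier results of these data known. Peaks of different Zfp genes within 1 Mb were joined into clusters, and peaks of an antibody overlapping by at least 1 bp into regions. Consensus regions had a peak in at least 2 of 3 libraries of a group. Shares were compared by two-sided exact permutation over libraries and clustered with lone genes by exact sign flips, with Benjamini-Hochberg adjustment over 11 tests (Python 3.11.15, numpy 2.4.6, scipy 1.17.1). Promoters were aligned with Biopython 1.88. Scripts were tested on simulated lists. Regions named were the 5 per group with a peak in most libraries and the highest mean score rank, QSC-specific regions, the largest clusters, genes in several groups and members of 3 role lists. Alternatives were a score of at least 80, merging or leaving out peaks, other cluster distances, and leaving out libraries.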

Additional observations from a re-analysis of the deposited data

Results flagged for a closer look

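The change of the Zfp share with state differed between the antibodies. ASC minus QSC, taken between libraries of the same number, was −12.5, −22.2 and −18.5 percentage points for MyoD and 0.735, 1.24 and 2.97 points for MyoG. Every MyoD value was thus below 0 and every MyoG value above it, a difference of −19.4 points (two-sided exact permutation of the antibody labels, p = 0.1, the smallest p possible with 3 against 3). Whether the numbers pair the libraries is not known. Over all 9 combinations of an ASC with a QSC library the difference ran from −22.2 to −12.4 points for MyoD and from 0.735 to 2.97 points for MyoG. Since these ranges do not overlap, each of the 36 pairings had to give the smallest exact permutation p, 0.1, so the pairings add nothing to the test. The difference was tested on the data in which it was seen.

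The median score rank of clustered minus lone Zfp peaks was below 0 in every ASC MyoD library and above 0 in every ASC MyoG library. The means were −31.2 and 33.6 points, −64.7 points apart, and this difference was not tested.

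Peak numbers run on along a chromosome, so a number missing between listed peaks is one that MACS gave to no listed peak. Within cluster 1, 7 numbers were missing in QSC MyoD replicate 1 and 4 in replicate 2, against 2 in replicate 3 and 0 in ASC MyoD replicate 1. Within cluster 6, 5, 5 and 6 were missing in ASC MyoG replicates 1, 2 and 3. What stood under those numbers is not known, and their part in the counts for Zfp268, Zfp986, Zfp987, Zfp990, Zfp640 and Zfp998 was not tested.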

How the results depend on the processing

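The 4 differences in Zfp share and the MyoD state difference and ASC antibody difference in clustered share kept their direction in every alternative run. Across them, leaving out libraries apart, the Zfp share differences ranged from −53.0 to −8.57 points (MyoD, by state), 1.65 to 4.83 (MyoG, by state), −3.74 to −1.68 (ASC, by antibody) and 8.78 to 54.1 (QSC, by antibody), largest in size at a score of at least 80 and, for MyoD by state and QSC by antibody, smallest without cluster 2. At a score of at least 80 the QSC MyoG lists held only 8, 4 and 9 peaks, with no Zfp peak among them. Whether the replicate numbers pair the libraries is not known. Of 12 correlations of same-numbered libraries, from −0.0858 to 0.119, 1 exceeded 0.1. Such correlations cannot settle it, because the lists compared differ in state or antibody. The replicate block, a sign flip over same-numbered libraries, left these differences as they were (−17.7 points for the MyoD Zfp share) and gave an exact permutation p = 0.25, the smallest p that 3 pairs allow, so it changed no call. For clustered share it gave 10.3 points for the MyoG state difference and 2.24 points for the QSC antibody difference, each with exact permutation p = 1. At a score of at least 80, clustered minus lone was 2419 bp in width (exact permutation p = 0.125), 5.38 points in promoter share (p = 0.5) and −6.07 points in score rank (p = 0.625), and clustered share in QSC MyoG had no value. At that score fewer libraries held both kinds of peak than in the main test. Without cluster 2, the width difference was 88.6 bp (exact permutation p = 0.15) and the QSC antibody difference in clustered share turned to −21.4 points (p = 0.4). With clusters by RefSeq gene starts, width was 214 bp (exact permutation p = 0.141) and promoter share 6.53 points (p = 0.75). This setting left out Zfp268, Zfp986 and Zfp998, which have no RefSeq start, and fewer libraries held both kinds of peak than in the main test. Without Zfp709, an alternative chosen after seeing the data, promoter share was 19.9 points (exact permutation p = 0.211). The causes were not tested.

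Leaving out 1 library at a time gave a range of −15.1 to 34.9 points for the MyoG state difference in clustered share and −21.1 to 28.9 points for the QSC antibody difference, both negative without QSC MyoG replicate 2 and both highest without QSC MyoG replicate 1. Zfp consensus regions and Zfp ASC-specific regions of ASC MyoG ranged from 5 to 12, with 7, 5 and 6 regions without ASC MyoG replicate 1, 2 and 3, because fewer libraries remain. In the main setting Zfp genes held 18 of 1986 consensus regions in ASC MyoD, 18 of 41 in QSC MyoD and 12 of 221 in ASC MyoG. Zfp consensus regions with a score of at least 80, with a peak in all 3 libraries and with a peak in at least 1 library were 9, 10 and 40 in ASC MyoD, 10, 8 and 45 in QSC MyoD and 4, 3 and 37 in ASC MyoG. By the same settings, ASC-specific MyoD regions were 8, 10 and 36, QSC-specific MyoD regions 10, 6 and 41 and ASC-specific MyoG regions 4, 3 and 37. QSC MyoG had 4 consensus and 4 QSC-specific Zfp regions with a peak in at least 1 library. The counts over all regions in these alternative settings are not given here, so the Zfp counts cannot be read as shares.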

Other observations

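Peaks given to other genes lay among the Zfp peaks. In cluster 1, 8 further peaks, 7 of QSC MyoD and 1 of QSC MyoG, were given to Gm13034, Gm13035, Gm13036, Gm21978 and Vmn2r-ps15, with scores of up to 91.7 at Gm13036. In cluster 6, 8 ASC MyoG peaks over all 3 libraries were given to Gm26806, with scores of up to 116. Within 200 kb beyond cluster 2, Gm20707 had 8 QSC MyoD peaks over all 3 libraries, with scores of up to 98.2. No gene outside the Zfp family had a peak inside cluster 2. Missing peak numbers inside cluster 2 were 1, 2 and 1 in the QSC MyoD replicates, while none was missing among the peaks of Zfp709.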
